A study of Mus musculus with 4 samples.

Results

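The intergenic CTCF sites described here lay at an intermediate distance from genes. They were chosen by position alone: the summit, the base of highest signal in a peak, lay on an autosome outside every annotated gene, over 1 kb from any transcription start site (TSS) and 20 to under 100 kb from the nearest TSS of a protein-coding gene in the GENCODE M21 basic annotation of mm10. This rule took 10711 members out of 90278 peaks in the whole list, or 12.2% of the 88071 autosomal peaks. They were set against 11058 autosomal intergenic peaks under 20 kb from a protein-coding TSS and 7742 at 100 kb or more, both held to the same rule otherwise. The assay was ChIP-seq, which sequences the DNA pulled down with an antibody, here to CTCF, and the tissue, labelled layer of hippocampus, came from male B6CASTF1/J mice, an F1 hybrid strain, aged 2 months. There were 2 biological replicates, each a pool of 7 tissue biosamples with 2 technical libraries, and no treated group. The labels enter the same donor for both pools, so separate animals are not assured, and read depth is unknown from the files used here. The peak list holds those peaks whose irreproducible discovery rate (IDR), a measure of how poorly ranks repeat between replicates, was at most 0.05.

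CTCF is a zinc-finger protein that binds a directional DNA motif, blocks enhancers from reaching promoters across it and halts cohesin as cohesin extrudes chromatin loops. Loop anchors most often carry motifs that point at each other. In rodents, B2 short interspersed repeats carry copies of the motif and have spread CTCF sites through the genome. Peaks give the position of CTCF and do not name the cell type that holds it.

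The members with the highest signal and an exact CTCF core are shown first, because they display the sequence at the strongest sites. Each sequence is the mm10 reference within 50 bp of the summit, and the CAST allele of the hybrid was not examined. Capitals mark the 12-base core, on the strand of the core. They lie at chr1:181888925-181889025 (+ strand), chr11:43348757-43348857 (- strand), chr2:178507531-178507631 (+ strand), chr6:99804369-99804469 (+ strand) and chr15:78744386-78744486 (- strand), in that order, and are named after the nearest protein-coding gene.
Lbr site: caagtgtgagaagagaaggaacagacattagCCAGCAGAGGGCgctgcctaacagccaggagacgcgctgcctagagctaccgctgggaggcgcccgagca
Pttg1 site: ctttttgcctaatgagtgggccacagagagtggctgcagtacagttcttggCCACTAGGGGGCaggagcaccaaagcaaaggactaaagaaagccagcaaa
Cdh26 site: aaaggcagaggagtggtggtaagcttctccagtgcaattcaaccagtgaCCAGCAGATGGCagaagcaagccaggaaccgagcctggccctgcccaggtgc
Prok2 site: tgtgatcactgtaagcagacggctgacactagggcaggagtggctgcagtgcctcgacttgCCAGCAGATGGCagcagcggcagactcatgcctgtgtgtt
Elfn2 site: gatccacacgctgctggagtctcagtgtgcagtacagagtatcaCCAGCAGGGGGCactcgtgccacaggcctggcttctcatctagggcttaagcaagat

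The commonest core among the members had 1 mismatch to the CTCF consensus and sat on repeats. It is shown because 1779 members, 16.6% of all, shared it letter for letter, and in 97 of them the 10 bases on each side were shared too. The commonest such 32-base stretch has a copy at chr2:83665207-83665238 (+ strand), 20808 bp from the TSS of Zc3h15, where the signal was 155 in replicate 1 and 174 in replicate 2. The strongest members with this core lie at chr10:3333004-3333104 (+ strand) and chr15:57600672-57600772 (+ strand), 33003 bp from Ppp1r14c and 93943 bp from Zhx2.
Shared stretch: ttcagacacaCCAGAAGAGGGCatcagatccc
Ppp1r14c site: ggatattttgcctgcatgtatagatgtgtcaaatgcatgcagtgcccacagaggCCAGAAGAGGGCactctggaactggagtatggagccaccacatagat
Zhx2 site: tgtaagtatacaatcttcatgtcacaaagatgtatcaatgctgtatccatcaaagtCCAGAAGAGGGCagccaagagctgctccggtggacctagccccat

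Some strong members had no core within 2 mismatches of the consensus. This does not show that they lack a weaker form of the motif. The 3 strongest members with over 2 mismatches to the CTCF core are printed on the + strand with no capitals, followed by the 3 weakest members, which also had no core within 2 mismatches. The strong ones lie at chr5:112153957-112154057, chr3:85924137-85924237 and chr9:43287061-43287161, and the weak ones at chr3:146340692-146340792, chr11:60961920-60962020 and chr12:31136171-31136271. The weak ones had deposited signals of 12.95 (Ssx2ip), 13.01 (Map2k3) and 13.12 (Fam110c). In replicates 1 and 2 they had 29.04 and 29.55, 30.27 and 32.74, and 37.87 and 53.13, in that order. Each replicate value was above the deposited signal, so their rank as weakest holds for the deposited signal only.
Cryba4 site: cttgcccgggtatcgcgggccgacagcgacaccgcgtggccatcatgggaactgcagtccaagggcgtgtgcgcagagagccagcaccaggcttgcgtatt
Glt28d2 site: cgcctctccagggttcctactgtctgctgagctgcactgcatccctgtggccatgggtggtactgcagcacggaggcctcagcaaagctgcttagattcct
Trim29 site: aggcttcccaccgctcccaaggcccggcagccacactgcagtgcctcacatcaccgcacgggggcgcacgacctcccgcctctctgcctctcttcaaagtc
Ssx2ip site: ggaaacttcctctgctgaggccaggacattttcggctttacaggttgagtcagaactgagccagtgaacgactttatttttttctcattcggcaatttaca
Map2k3 site: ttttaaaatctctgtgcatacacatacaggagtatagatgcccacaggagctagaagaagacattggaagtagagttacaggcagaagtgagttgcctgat
Fam110c site: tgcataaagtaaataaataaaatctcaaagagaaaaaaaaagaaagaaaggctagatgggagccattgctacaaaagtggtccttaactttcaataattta

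Members were spread over a wide range of signal. The authors' peak signal, a score whose scale is not stated, ran from 12.9 to 966 over the members, with quartiles of 92.6, 209 and 584. The histogram of signal has a tall peak of weak sites and a broad low one of strong sites: 3014 members were below 100 and 3284 above 500. In bulk tissue, a site held in few cells and a site held weakly in many cannot be told apart. Peak width ranged from 110 to 1116 bp, and 32.3% of members had a width of exactly 440 bp.

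**Figure D1:**
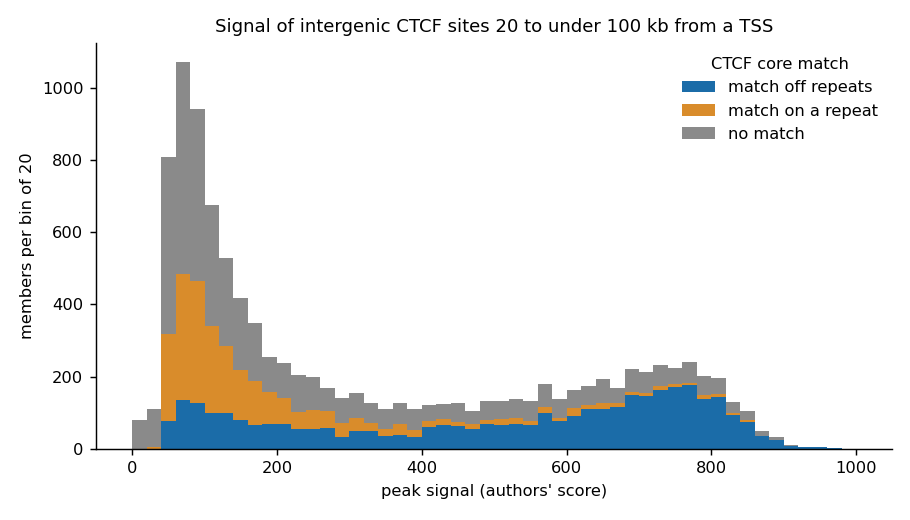
Histogram of the peak signal of the 10711 members (x axis, authors' score, bins of 20), stacked by the CTCF core at the summit: matched with up to 1 mismatch off repeats, matched on a repeat, or not matched. Matches off repeats fill most of the strong sites (median 579), and matches on repeats lie mostly among the weak ones (median 121).

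The strongest member lay 53376 bp upstream of Hnrnpa3, which encodes an RNA-binding protein, at chr2:75605615-75606156, with a signal of 481 in replicate 1 and 492 in replicate 2. A site 28867 bp upstream of Dtnbp1, the gene of dysbindin, had 475 in replicate 1 and 494 in replicate 2. The site beyond the end of Ier5, an immediate early response gene, and 92882 bp from its TSS had 468 and 495. Replicate 2 was slightly higher at each of these sites, as it was over the members in general. The sites next in signal were those of Ddr1, a collagen receptor kinase (477 in replicate 1 and 479 in replicate 2), Lbr, the lamin B receptor (465 and 490), Ubr2, a ubiquitin ligase (463 and 491), and Pttg1, securin (455 and 494). The last of the 10 strongest were at Chrm3, a muscarinic acetylcholine receptor (462 and 477), Cdh26, a cadherin (461 and 478), and BC017158 (463 and 468). Among the other sites printed above, Prok2 had 448 in replicate 1 and 485 in replicate 2, and Elfn2 455 and 478. Replicate 2 was also above replicate 1 at the sites with no core within 2 mismatches near Cryba4 (457 and 460), Glt28d2 (426 and 453) and Trim29 (406 and 464). The same held at the sites with the commonest core near Ppp1r14c (398 and 440) and Zhx2 (406 and 411). The 10 strongest summits all lay off repeats, 3 had an exact core, 5 had 1 mismatch and 2 had 2 mismatches.

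CTCF cores were more frequent at the stronger members. At 6042 members, 56.4% (55.5 to 57.4, 95% exact interval for counting error only), the 50 bp on either side of the summit held a core with no more than 1 mismatch, where 50.1% of all autosomal peaks had one. The match was exact at 1419 members, had 1 mismatch at 4623 and 2 mismatches at 2646, and 2023 members had 3 or more. Where a core was found, its centre lay a median of 7.5 bp from the summit, and 87.0% of these centres lay within 20 bp. From the weakest to the strongest decile of members by signal, the share with a core was 34.1%, 44.2%, 49.5%, 52.5%, 55.7%, 55.2%, 58.5%, 65.4%, 73.0% and 76.0%. The share with an exact core was 2.05% in the weakest decile and 32.6% in the strongest.

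Summits on repeats were rarest among the strongest members. The summit lay on repeat-masked sequence at 28.8% of members (27.9 to 29.7), where 30.3% of all autosomal peaks did, so that the members as a whole were near the background. The share was 46.1% in deciles 3 and 4 and 3.74% in decile 10, the strongest. The commonest core followed it, at 29.0% of decile 3 and 1.03% of decile 10. Members with this core had a median signal of 112, against 530 for members with any other core, and 1776 of the 1779 cores were on a repeat. The reference marks repeats without naming their family here, and the treatment of reads that fit several copies is not stated; the part of either in the low signal was not tested.

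**Figure D2:**
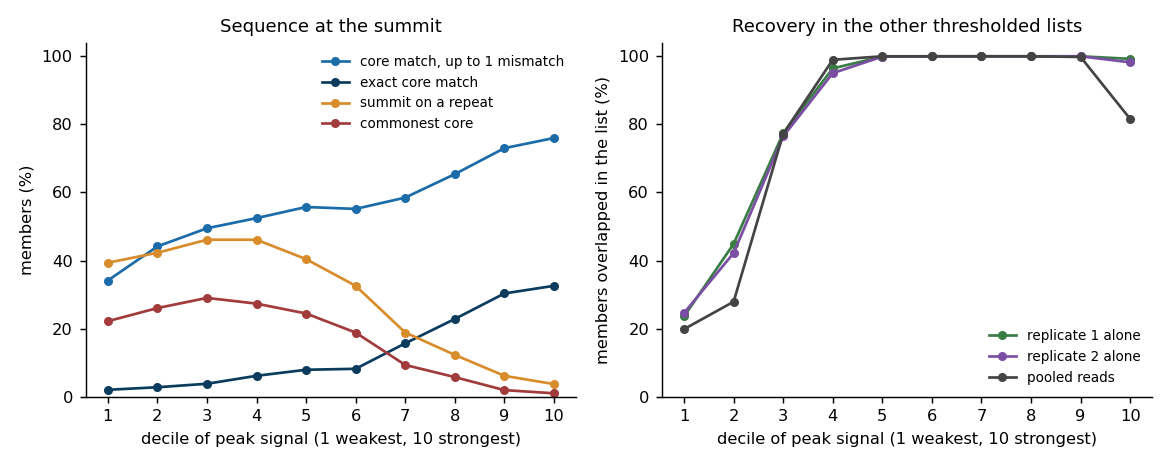
Left, share of members (y axis, percent) in each decile of peak signal (x axis) with a core of up to 1 mismatch, an exact core, a summit on a repeat or the commonest core. Right, share of the same members overlapped by at least 1 bp in the thresholded lists of replicate 1 alone, replicate 2 alone and pooled reads. Cores rise to 76.0% while repeats fall to 3.74%, and the pooled list holds 81.6% of decile 10 and 100% of deciles 5 to 8.

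The members fell into sequence groups with unlike signal. Members with a core off repeats numbered 3676 and had a median signal of 579. The 2366 members with a core on a repeat had a median of 121, and the commonest core made up 75.1% of them. Without a core, 3816 members with the summit off repeats had a median of 157 and 853 with the summit on a repeat had 105. The highest signal of a member without a core was 953, at the Ier5 site, which had 2 mismatches. There were 323 distinct cores among the members. After the commonest, the next cores were CCAGCAGAGGGC at 202 members (median signal 494, 46.0% on repeats), CCAGCAGGTGGC at 127 (634, 0.787%), CCAGAAGGGGGC at 124 (137, 73.4%) and CCACCAGGGGGC at 115 (675, 4.35%). Of these 5 cores, those mostly on repeats had medians of 112 and 137 and those almost wholly off repeats 634 and 675.

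The sequence open to members held many more copies of the motif than it held sites. Of 29868 copies with up to 1 mismatch in 328 Mb of eligible sequence, 6199 lay within 50 bp of a summit, 20.8% (20.3 to 21.2). Exact copies were rarer and far more often under a summit, 1420 of 1919 or 74.0% (72.0 to 76.0). Copies of the commonest core numbered 6981, of which 25.5% were under a summit, and other copies on repeats were so in 8.50% of cases.

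Sites at intermediate distance were less dense than those near genes and denser than those in gene deserts. There were 32.6 members per Mb of eligible sequence, against 50.6 under 20 kb and 11.9 at 100 kb or more, ratios of 0.645 and 2.75. The order held on all 19 autosomes in both comparisons (exact two-sided sign test over autosomes, adjusted p = 5.9e-06 each, Benjamini-Hochberg over 17 sign tests). The unadjusted p of 3.8e-06 is the smallest that this test can give with 19 autosomes, and it describes how even the difference was across autosomes of these libraries, not across animals. Density of members was lowest on chromosome 13, at 26.5 per Mb, and highest on chromosome 11, at 46.1 per Mb.

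**Figure D3:**
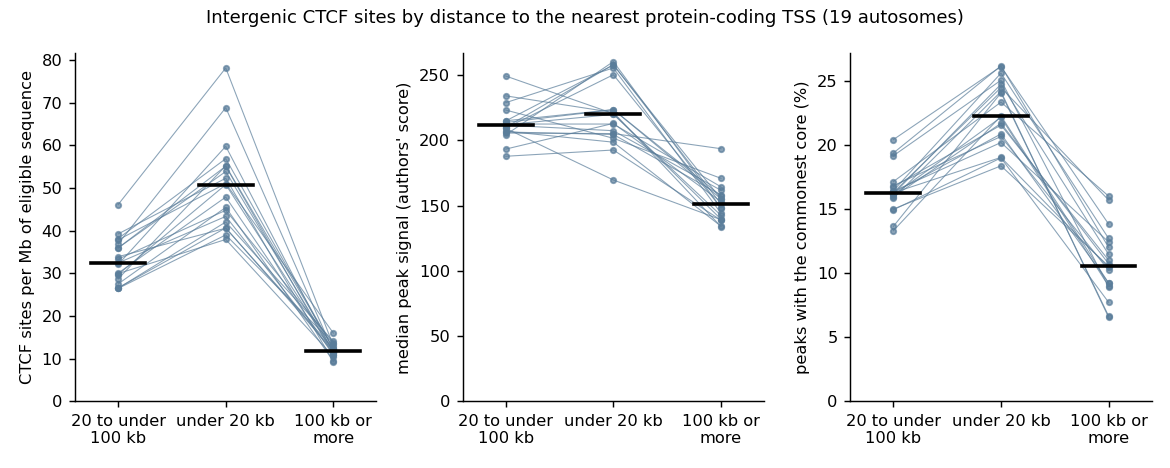
Values per autosome (points joined by lines, 19 autosomes; black bars are medians over autosomes) for members (left), peaks under 20 kb (middle) and peaks at 100 kb or more (right). The panels show sites per Mb of eligible sequence, median peak signal in the authors' score and percent of peaks with the commonest core. Density and the commonest core place the members between both other groups on every autosome, while the median signal of members and of peaks under 20 kb crosses over.

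The members had a higher median signal than sites in gene deserts. The median was 209 for members, against 150 at 100 kb or more, and was higher for members on 19 of 19 autosomes (exact sign test, adjusted p = 5.9e-06). Against a median of 217 under 20 kb, members were higher on 8 autosomes and lower on 11 (exact sign test, adjusted p = 0.65). The exact sign test depended on the limits here: with limits of 30 and 200 kb the medians were 185 for members and 220 for nearer peaks (adjusted p = 8.6e-05), and with 10 and 50 kb they were 226 and 204 (adjusted p = 0.44). By the exact sign test, members were lower on 15 of 19 autosomes without the commonest core (270 against 317, adjusted p = 0.027) and with only protein-coding genes in the annotation (204 against 218, adjusted p = 0.02).

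Among the ranked candidate peaks at intermediate distance, 10711 of 22423 passed the IDR limit, 47.8% (47.1 to 48.4), where 44.2% of all autosomal candidates passed. The share was 49.1% under 20 kb and 39.3% at 100 kb or more. It was higher for members than for deserts on 19 of 19 autosomes (exact sign test, adjusted p = 5.9e-06). Against peaks under 20 kb it was lower on 13 of 19 (exact sign test, adjusted p = 0.18). In the list without replicate 1 it was lower on 15 of 19 (46.3% against 47.8%, exact sign test, adjusted p = 0.023), and the difference also passed with limits of 30 and 200 kb (adjusted p = 0.00077) and with only protein-coding genes (adjusted p = 0.02).

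The CTCF core was more frequent at members than in gene deserts, at 56.4% against 47.6%, on 19 of 19 autosomes (exact sign test, adjusted p = 5.9e-06). It was less frequent than under 20 kb, at 56.4% against 59.8%, with members lower on 18 of 19 autosomes (exact sign test, adjusted p = 0.0001). That difference was not present without the commonest core: among the other peaks, the shares were 47.7% for members and 47.7% under 20 kb (adjusted p = 0.2), and exact cores were at 13.2% and 13.1% (adjusted p = 1). It also failed the exact sign test in the list without replicate 1 (55.7% against 58.1%, 13 of 19 lower, adjusted p = 0.18), with limits of 10 and 50 kb (adjusted p = 1) and with 2 mismatches (adjusted p = 0.077). Peaks of the commonest core all count as having a core, and they were more frequent under 20 kb. Leaving them out thus lowers the share under 20 kb more by construction, so that alternative is no separate check.

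The commonest core was carried by 16.6% of members, against 23.2% of peaks under 20 kb and 10.6% at 100 kb or more. The order held on all 19 autosomes in both comparisons (exact sign test, adjusted p = 5.9e-06 each). Its copies themselves were spread in the same order, at 21.3 per Mb of sequence open to members, against 40.9 under 20 kb and 5.61 at 100 kb or more. Of these copies 25.5% were under a summit at intermediate distance, against 29.0% under 20 kb and 22.6% at 100 kb or more. The median signal of peaks with this core was 112 for members, 112 under 20 kb and 108 at 100 kb or more.

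Over all motif copies, 20.8% were under a summit at intermediate distance, against 25.3% under 20 kb and 11.1% at 100 kb or more. The order held on 19 of 19 autosomes in both comparisons (exact sign test, adjusted p = 5.9e-06 each). For exact copies the shares were 74.0%, against 77.4% under 20 kb, where the sign test over autosomes did not pass (adjusted p = 0.19), and 55.3% at 100 kb or more.

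Summits on repeats were fewer among members than under 20 kb, at 28.8% against 37.4%, on 19 of 19 autosomes (exact sign test, adjusted p = 5.9e-06). They were more frequent than at 100 kb or more, at 28.8% against 22.6%, on 17 of 19 (exact sign test, adjusted p = 0.00088). Without the peaks of the commonest core, the difference from deserts was 16.1% against 14.7% and did not pass (exact sign test, adjusted p = 0.2). Of members with this core, 92.8% had the summit on a repeat. Leaving such peaks out lowers the share more for members, where the core is more frequent. The eligible sequence itself was repeat-masked to 38.2% for members, 40.1% under 20 kb and 39.2% at 100 kb or more.

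GC content within 150 bp of the summit averaged 45.8% for members, against 43.4% at 100 kb or more, and was higher on 19 of 19 autosomes (exact sign test, adjusted p = 5.9e-06). The eligible sequence had a GC content of 42.4% for members and 39.3% for deserts. Against 46.2% under 20 kb, members were lower on 13 of 19 autosomes (exact sign test, adjusted p = 0.18). Members were lower past the threshold of the exact sign test with limits of 30 and 200 kb (19 of 19, adjusted p = 5.9e-06), without the commonest core (18 of 19, adjusted p = 0.00013) and without replicate 2 (16 of 19, adjusted p = 0.005), while within 50 bp of the summit the difference turned to 0.0398 points.

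Within the members, density was lower in each bin farther from the gene. It was 40.7 sites per Mb at 20 to 30 kb, 37.6 at 30 to 40 kb and 33.8 at 40 to 50 kb. From 50 kb on, the successive bins of 10 kb held 28.8, 27.3, 27.2, 25.1 and 23.6 sites per Mb. The commonest core had 8.03 sites per Mb in the first bin and 3.11 in the last, cores off repeats 14.5 and 8.32, and sites without a core 16.2 and 10.6. The median signal was 232 in the first bin and 191 in the last. The median distance of a member was 41862 bp, and 61.4% of members lay under 50 kb.

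**Figure D4:**
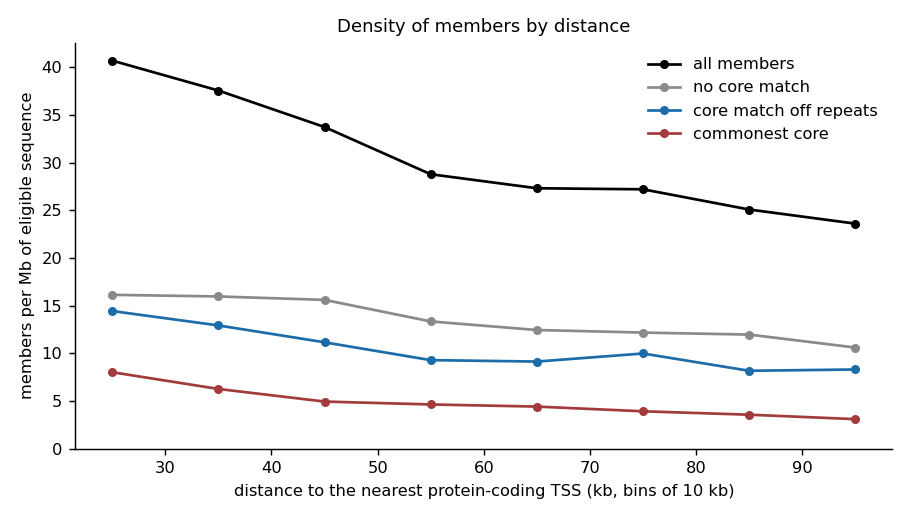
Members per Mb of eligible sequence (y axis) in bins of 10 kb of distance to the nearest protein-coding TSS (x axis), for all members, members without a core, with a core off repeats and with the commonest core. The first bin holds 40.7 members per Mb and the last 23.6, and the commonest core 8.03 and 3.11.

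The sites nearest to the limits of the rule had signals from 49.8 to 931. They are too few to describe sites at the limits in general. The nearest members to the 20 kb limit lay 20001 bp from B3glct (signal 118) and 20002 bp from Gpd1l (146), and the nearest sites outside it 19998 bp from Ttf2 (343) and 19997 bp from Hif1an (931). At the upper limit, the members at 99999 bp from Ptpn20 and 99976 bp from Tspan5 had signals of 49.8 and 628. The nearest sites outside it, 100026 bp from Cypt12 and 100027 bp from Ralgapa2, had 639 and 789.

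Members lay beyond the gene end more densely than upstream of the start. Upstream of the nearest gene there were 6298 members, 58.8% of all, in 207 Mb, and beyond its end 4413 in 121 Mb. The densities were 36.4 per Mb beyond the end and 30.4 per Mb upstream, with the first above the second on 16 of 19 autosomes. The gap was present at 20 to under 50 kb (43.0 beyond the end and 35.2 upstream) and at 50 to under 100 kb (29.9 and 24.6). Distance was always taken to the TSS, so a member beyond the end can lie nearer to the gene itself than one upstream. The densities are therefore not compared at like distance from the gene. No test was planned for this split and none was made.

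Gaps between protein-coding genes hold the same members, sorted here by how the flanking genes run. Between genes that end towards each other, members had a density of 37.8 per Mb, against 31.3 between genes that start away from each other and 31.6 between genes that run in the same direction. The tail-to-tail density was above the same-direction one on 17 of 19 autosomes and above the head-to-head one on 15. The head-to-head density was above the same-direction one on 8 of 19. At 20 to under 50 kb the tail-to-tail, head-to-head and same-direction densities were 45.4, 35.8 and 36.7 per Mb. At 50 to under 100 kb they were 30.4, 25.9 and 25.8 per Mb in that order. Distance was again taken to the TSS, so these densities too are not compared at like distance from the gene itself. These values are descriptions with no test.

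The core pointed away from the nearest gene more often than towards it. Among the 5932 members with a core on a single strand, 2752 cores read 5′ to 3′ towards the nearest protein-coding TSS, 46.4% (45.1 to 47.7). The share was below an even split on 18 of 19 autosomes (exact sign test, adjusted p = 0.0001). Beyond the gene end 41.6% pointed to the TSS (39.6 to 43.6), below even on 18 autosomes and above it on none. Upstream of the gene 49.8% did (48.2 to 51.5), below even on 10 autosomes and above it on 9. Beyond the gene end, a core that points away from the TSS reads in the direction of the gene. The commonest core was at 48.1% (45.7 to 50.4) and the other cores at 45.7% (44.2 to 47.2). Peaks under 20 kb had 50.1% and peaks at 100 kb or more had 45.8%, and beyond the gene end these were at 46.2% and 44%. The difference between members and either was not tested.

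Cores at neighbouring members in the same gap shared the strand slightly more often than not, and convergent pairs were fewer than divergent ones. No test was made of these pairs. Of 2862 successive pairs with a core on a single strand each, 1504 shared the strand, 52.6%, where independent strands at an even split would give 50%. Convergent pairs, whose cores point at each other, numbered 636 or 22.2%, and divergent ones 722 or 25.2%. The median spacing was 11885 bp for convergent and 9115 bp for divergent pairs. Among pairs under 20 kb apart, 20.6% were convergent and 26.8% divergent.

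Members were seldom isolated. After overlapping peaks were reduced to the strongest, the nearest other site of any class lay a median of 6309 bp away, against 3917 bp for sites under 20 kb and 17910 bp for desert sites. Within 10 kb of another site lay 63.4% of members, against 78.8% under 20 kb and 36.3% in deserts. Of 7085 gaps with eligible sequence, each between protein-coding genes or out to a chromosome end, 3866 held a member, of which 1376 held 1 and 56 held 10 or more. The 645 gaps with 5 or more held 40.0% of all members.

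The gap between Msra, a methionine sulfoxide reductase gene, and Kif13b, a kinesin gene, held 19 members in 191 kb (chr14:64455904-64647264), the most of any gap. Their median signal was 125, and 11 had a core. The gap of Lrrc74a and Irf2bpl held 18 (chr12:86763798-86880700), and that of Mgat5b and Sec14l1 held 17 (chr11:116986949-117115167). The gaps of Syf2 and Runx3 and of Tbx3 and Tbx5 held 16 each. The Tbx3 and Tbx5 gap (chr5:119684725-119832667) lies between genes of T-box factors that pattern limbs and heart. Of its 16 summits 11 were on repeats, the strongest reached 858 and the median was 125.

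Members were nearest to 4587 of 20780 autosomal protein-coding genes, 22.1% of them. Only 9278 of these genes had any eligible sequence of their own, and 49.4% of those had a member. Rbbp6, which encodes a ubiquitin ligase that binds p53 and RB, had the most, with 16 members at 25201 to 83619 bp, of which 12 had a core and 10 a summit on a repeat. Ccdc167 had 15, all upstream. Sec14l1, Ipo5, an importin gene, and Kif13b had 14 each. Kcna5, a voltage-gated potassium channel gene, Lrrc74a and Zfp706 had 13 each, and Slc28a3, a nucleoside transporter gene, and Sept9, a septin gene, 12 each. The strongest medians among these 10 were 543 at Kcna5 and 332 at Lrrc74a, and the others lay between 158 and 320.

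Gene lists differed in how much eligible sequence they had. Over all genes, 22.1% were nearest to a member, and the list shares given here are likewise over all genes of a list. There were 32.6 members per Mb of eligible sequence over all genes, and 49.4% of genes with such sequence had a member. Such sequence was present for 82 developmental, 47 synaptic adhesion and guidance and 13 proteasome subunit genes. Of 91 developmental transcription factor and signal genes, 51 were nearest to a member, 56.0% (45.2 to 66.4), but at 22.5 members per Mb, below the value for all genes. Tbx3 had 10 members, Tbx5 had 7 and Bcl11b, a zinc-finger factor of deep cortical neurons and dentate granule cells, had 6. Synaptic adhesion and guidance genes were nearest to a member in 22 of 59 cases, 37.3%, at 9.62 members per Mb, with Slitrk5 at 4 and Opcml and the guidance receptor gene Epha4 at 3 each. Proteasome subunit genes were nearest to a member in 7 of 31 cases, 22.6%, at 75.7 per Mb of their 0.251 Mb, with Psmd7 at 6, Psmb1 at 5 and Psmd14 at 3. The eligible sequence per list was small, so 1 gene can decide a density.

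For the lists that follow, the values over all genes were again 22.1% and 32.6 members per Mb, with 49.4% among genes with eligible sequence. Markers of hippocampal principal neurons were nearest to a member in 12 of 28 cases, 42.9% (24.5 to 62.8). Their density of 33.1 members per Mb was near that over all genes. Iyd had 5 members, all with a core, Prox1, the dentate granule cell factor, had 5 with a strongest signal of 248, and Dkk3 had 4 with a strongest signal of 784. Excitatory synapse genes were so in 6 of 24 cases, at 19.1 per Mb. Grm7, a metabotropic glutamate receptor gene, had 5 upstream members, the scaffold gene Shank2 had 3 and the kainate receptor gene Grik2 had 2. Activity-induced genes were so in 13 of 33 cases, 39.4% (22.9 to 57.9), at 17.3 per Mb: Nptx2, a neuronal pentraxin gene, had 7, Fos had 3 beyond its end with a strongest signal of 759, and Klf4 had 2. Interneuron genes were so in 9 of 30 cases, at 20.8 per Mb. Dlx2, a homeobox gene of forebrain interneurons, had 11, all upstream of it, with a median of 124 and a strongest signal of 678. Erbb4 had 3, and Prox1 is also on that list. Eligible sequence was present for 20 principal neuron, 16 excitatory synapse, 23 activity-induced and 27 interneuron genes.

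Glial, vascular and comparison lists stand beside the same 22.1% and 32.6 members per Mb over all genes. Among genes with eligible sequence the share was 49.4%. Such sequence was present for 7 astrocyte, 7 oligodendrocyte lineage, 10 microglia, 9 vascular, 10 cohesin and architectural factor and 8 liver genes. Astrocyte markers were nearest to a member in 5 of 16 cases, 31.2% and 36.4 per Mb, with Slc1a3, a glutamate transporter gene, at 9 and Gja1 and Aqp4 at 2 each. Oligodendrocyte lineage markers were so in 4 of 17 cases, 23.5% and 48.4 per Mb: Pdgfra had 5, all beyond its end, Mbp had 3 and Olig2 had 2. Microglia markers were so in 3 of 17, 17.6% and 17.3 per Mb, with Siglech at 4 and Sall1 and Fcrls at 1 each. Vascular markers were so in 5 of 15, 33.3% and 38.9 per Mb. Cdh5, the endothelial cadherin gene, had 8 upstream members with a median signal of 642, Flt1 had 4 and Kdr had 3. Genes of cohesin and architectural factors were nearest to a member in 4 of 23 cases, 17.4% and 32.9 per Mb, with Yy1 at 3, Ctcfl at 2 and Pds5a at 1, and liver genes in 4 of 19, 21.1% and 31.0 per Mb, with Pck1 at 2 and Cyp7a1 and Tat at 1 each. The median number of members per gene was 1 for the developmental list and 0 for each of the other 12 lists, as it was over all autosomal protein-coding genes. The lists are small, and none was tested.

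The replicates gave nearly the same signal at members that stood alone. For most members that stood alone, the deposited signal was close to the sum of the replicate signals: for the 9884 members that overlapped no other peak, the ratio of the deposited signal to that sum had a median of 1.00 and lay within 5% of 1 for 97.4%. The log2 ratio of replicate 2 over replicate 1 had a median of 0.09 and, less that median, an SD of 0.44 over all members. Pearson's r of the log2 signals across members was 0.949 and Spearman's rho 0.952, as descriptions, since both replicates share the peak list and members are not independent. The list kept only peaks whose ranks repeated between these same replicates, so close agreement was partly set by that choice. Among members that overlapped no other peak the SD was 0.20 and r was 0.990, and no ratio left the range of -0.83 to 0.85. The 827 members that overlapped another peak, 7.72% of all, had an SD of 1.42, and held all 145 members that differed over 2-fold.

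The largest ratios were at a site beyond the end of the T gene, which encodes brachyury, 34675 bp from its TSS (7.22 in replicate 1 and 422 in replicate 2), at Zfp148 (8.40 and 369) and at Cycs, the cytochrome c gene (9.99 and 411). The smallest were at Slc38a4, an amino acid transporter gene (402 in replicate 1 and 8.63 in replicate 2), Far1 (334 and 8.25) and the Wnt receptor gene Fzd10 (321 and 7.95). All 6 lay in peaks with another summit, none had a core within 2 mismatches, and 5 had a summit off repeats. In the peak near T, the stronger summit had 406 in replicate 1 and 422 in replicate 2. In the peak near Slc38a4, the stronger summit had 402 in replicate 1 and 434 in replicate 2. At both, the higher replicate value of the named member was thus also listed for the stronger summit. No difference between the pools was read from these values.

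**Figure D5:**
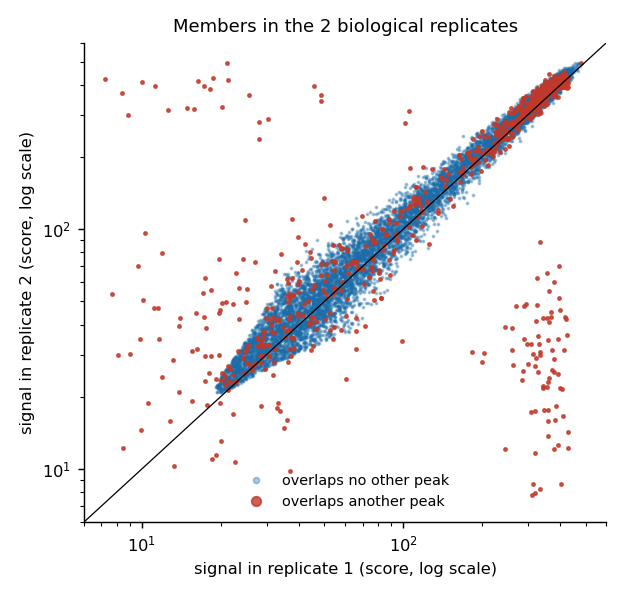
Signal of each member in replicate 1 (x axis) and replicate 2 (y axis), in the authors' score on log scales, with the line of equal values. Blue points overlap no other peak and follow the line with an SD of 0.20 in log2, and the 827 red points overlap another peak and hold every ratio over 2-fold.

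Most members were also in the lists of single replicates and of pooled reads. These lists share reads with the list of members, so the overlap is not an independent check. The thresholded list of replicate 1 overlapped 9013 members, 84.1% (83.4 to 84.8), that of replicate 2 overlapped 8959, 83.6% (82.9 to 84.3), and that of pooled reads 8626, 80.5% (79.8 to 81.3). Under 20 kb the shares were 83.3%, 83.8% and 79.5%, and in deserts 79.1%, 79.7% and 76.5%. Members with a core off repeats were in the replicate 1 list in 94.6% of cases and those with the commonest core in 73.9%.

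Weak members were lost from each list, and the strongest mainly from the pooled one. In the weakest decile 23.6% of members were in the list of replicate 1, 24.6% in that of replicate 2 and 19.9% in the pooled one, whereas in deciles 5 to 8 at least 99.9% were in each. In decile 10 the list of replicate 1 held 99.3%, that of replicate 2 98.2% and the pooled one 81.6%. Of the 200 strongest members these lists held 98%, 94.5% and 39.5%, the last being 79 members. None of the 10 strongest members was in the thresholded pooled list. All 10 were in the ranked list of pooled reads at the same coordinates, with IDR scores of 72 to 354 there, where 540 is the score at an IDR of 0.05. The same sites scored 1000 in the between-replicate list, and 9 were in the list of replicate 1 and 7 in that of replicate 2. The cause was not tested.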

How the data were processed

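The files used were 8 peak lists deposited by the authors: ranked and thresholded lists between replicates, of each replicate alone and of pooled reads. Their peak signal is a deposited score of a caller that is not named, and the deposited IDR score reaches 1000, with 540 at an IDR of 0.05. The deposited between-replicate list gives IDR also as −log10. The aligner is not given in the sources used here. Per the labels the build is mm10. No column of per-sample values was left unused.

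From these lists, summits were placed on the GENCODE M21 basic annotation and the RefSeq mm10 genome with its repeat masking. Eligible sequence is every autosomal base that meets the positional rule. The CTCF core consensus (12 bases with ambiguous positions) was sought on either strand, inside the 50 bp at each side of a summit, allowing 1 mismatch. Groups were compared over the 19 autosomes with exact sign tests and Benjamini-Hochberg adjustment over 17 tests, of which 4 (motif copies under a summit, commonest core) were added after seeing the data. Shares have 95% exact intervals, which cover counting error only. Members and gene lists were chosen with earlier results of these data known. Named members followed a rule: the 10 strongest, the 3 largest and 3 smallest replicate ratios, those nearest to each limit, the genes and gaps with most members, and 3 genes a list. Technical libraries have no values of their own in these lists, and the input control was not used here. The code was tested on simulated data. Tables were handled in pandas 2.3.3 under Python 3.11.15 with numpy 2.4.6, tests came from scipy 1.17.1 and plots from matplotlib 3.10.9.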

Additional observations from a re-analysis of the deposited data

Results flagged for a closer look

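Chromosome X was outside the rule, and 470 summits there met the same positional limits. They amounted to 12.2 per Mb of eligible sequence, below the 26.5 to 46.1 per Mb of the autosomes. Their median signal was 270, above the highest autosomal median of 249, and 59.4% had a core and 23.8% a summit on a repeat. The cause was not tested.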

How the results depend on the processing

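No paired analysis was possible because the technical replicate numbers have no values of their own in the deposited lists and the comparisons were between sites of the same libraries. Of 164 alternative values of the sign-test comparisons, 143 kept their direction and their side of the threshold. The members' density against both other groups, and their signal, core share, GC content and IDR share against deserts, did so under each alternative run. Differences are members minus the other group. Against peaks under 20 kb, the core share of -3.41 points was -0.59 with limits of 10 and 50 kb and -1.58 with 2 mismatches, neither past the threshold, turned to 0.108 with exact cores and to 0.0656 without the commonest core, and was -2.62 to -2.39 with a replicate left out, the value without replicate 1 (-2.39) not past the threshold. Median signal differed by -34.4 (30 and 200 kb), -14.3 (only protein-coding genes) and -46.8 (without the commonest core), past the threshold, by 22.8 with 10 and 50 kb and by -2.64 to 0.290 with a replicate left out, none of these past the threshold. GC content differed by -0.76 points (30 and 200 kb) and -0.87 (without the commonest core), past the threshold, by 0.0398 within 50 bp and by -0.519 to -0.517 with a replicate left out, past the threshold without replicate 2. The IDR share differed by -2.95 (30 and 200 kb) and -1.64 (only protein-coding genes), past the threshold, by 0.22 with 10 and 50 kb and by -1.56 to -0.420 with a replicate left out, past the threshold without replicate 1 (-1.56). Exact motif copies under a summit differed by -3.43 points, not past the threshold. Against deserts, summits on repeats differed by 3.8 points (30 and 200 kb) and 1.36 (without the commonest core), not past the threshold. Recovery by summits within 100 bp was 82.0% for replicate 1 and 82.0% for replicate 2, and the SD of the replicate ratio was 0.20 without members that overlap another peak. The alternatives without the commonest core and without overlapping members were chosen after seeing the data. Signals of single-replicate lists are on their own scale, and read depth is unknown, so weak sites have no error of their own.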
